A study of Mus musculus with 6 samples.

Results

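The transcripts described here encode secreted cytokines and chemokines of effector CD8+ T cells. They are 10 genes named in a list, Ifng, Tnf, Lta, Ltb, Csf2, Ccl3, Ccl4, Ccl5, Xcl1 and Spp1, and each was found by its symbol in all 6 libraries, among 34745 genes. All 10 had a mean of at least 1 FPKM (fragments per kilobase of transcript, scaled to the size of the library), and 9627 genes of the 34745 met this minimum and were tested.

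The libraries came from CD8+ T cells of the spleen, 3 from Scd-1-/- mice (Scd-1 KO) and 3 from WT mice. Scd-1-/- mice were B6.129-Scd1tm1Ntam/J, in which stearoyl-CoA desaturase 1, the enzyme that makes monounsaturated fatty acids, is missing from the whole body and not from T cells alone. The Scd-1-/- mice were donated by another institute and the WT mice were C57BL/6J mice bought from a supplier, and no littermate controls are described. The groups thus differ in source as well as in genotype, and these cannot be told apart. All mice were male and 6 to 8 weeks old. In both groups the cells received anti-CD3 at 5 µg/mL, anti-CD28 at 0.5 µg/mL and IL-2 (100 U/mL) over 3 days and then IL-2 without the antibodies for 3 days, and RNA was taken on day 6 as Teff (effector T cells). No restimulation before harvest is described, so the levels are those of cells kept in IL-2 after the antibodies were washed away. Each library held between 14034479 and 15866216 counts. Scd1 itself was at 58.2, 45.3 and 54.7 FPKM in WT and at 0.398, 0.528 and 0.261 FPKM in Scd-1 KO, which matched the labels (log2 fold change -7.04, edgeR adjusted p = 0.00011). The labels do not say whether libraries of a group came from separate mice, so p-values measure the spread between these libraries, which may be technical.

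Cytokines are the proteins by which a T cell acts on its neighbours. Interferon-gamma, made from Ifng, activates macrophages and raises antigen presentation, tumour necrosis factor (Tnf) and the lymphotoxins (Lta and Ltb) signal through receptors of the TNF family, and GM-CSF (Csf2) acts on myeloid cells. Ccl3, Ccl4 and Ccl5 encode CC chemokines that draw in T cells, monocytes and natural killer cells, and Xcl1 encodes the ligand of XCR1 on cross-presenting dendritic cells. Spp1 encodes osteopontin, a secreted phosphoprotein that binds integrins and CD44. After T cell receptor stimulation many of these transcripts are made in a burst and decay fast, and AU-rich elements in the 3′ UTR, built from repeats of ATTTA, are the known site of that decay.

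On GRCm38 with the GENCODE M21 annotation, 6 of the 10 genes lie in 2 clusters. Ltb (chr17:35194439-35196320, plus strand), Tnf (chr17:35199381-35202007, minus strand) and Lta (chr17:35203165-35205351, minus strand) are within the major histocompatibility complex, with 1158 bases between Tnf and Lta. Ccl5 (chr11:83525778-83530518, minus strand), Ccl3 (chr11:83647844-83649355, minus strand) and Ccl4 (chr11:83662584-83664683, plus strand) are in the CC chemokine cluster, and Csf2 (chr11:54247271-54249667, minus strand) is elsewhere on the same chromosome. Ifng is at chr10:118441046-118445892 (plus strand), Xcl1 at chr1:164931644-164935527 (minus strand) and Spp1 at chr5:104435118-104441050 (plus strand). The longest coding transcripts have between 3 and 6 exons. Ccl3 and Ccl4 are the most alike pair, with the shorter transcript 60.2% identical to its place in the longer. Among the genes that overlap a member in the annotation, Gm42793 overlaps Spp1 and was likewise highest in Scd-1 KO replicates 2 and 3 at a far lower level. It was at 0.158, 0.171 and 0.0562 FPKM in WT and at 0.0513, 1.02 and 1.11 FPKM in Scd-1 KO, and how reads in the shared bases were assigned is uncertain.

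The 3′ UTR sequences of the members were read for ATTTA, because the members differ widely in this element and it is the feature that cytokine transcripts are known for. Csf2 held 9 copies in 317 bases of 3′ UTR, Tnf 8 in 764, Ifng 6 in 631, Ccl3 5 in 409, Lta 3 in 572, Ccl4 and Spp1 2 each and Xcl1 1, whereas Ltb and Ccl5 held none. Of 8980 tested genes with an annotated 3′ UTR, 66.8% held at least 1 copy and 34.3% held 3 or more, with a median 3′ UTR of 1023 bases. Per length the members stand higher: Csf2, Ccl3 and Tnf each had at least 1 copy per 100 bases, which 1.05% of the tested genes reached. The stretches of 30 bases richest in ATTTA are shown for these 3 genes and for Ifng, 5′ to 3′ along the transcript, with ATTTA in capitals.
Csf2, chr11:54247324-54247353, minus strand: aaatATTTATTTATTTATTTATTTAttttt
Tnf, chr17:35199677-35199706, minus strand: tATTTAttATTTATTTAttATTTATTTAtt
Ifng, chr10:118445333-118445362, plus strand: ctATTTAttaatATTTAaaactATTTAtat
Ccl3, chr11:83648085-83648114, minus strand: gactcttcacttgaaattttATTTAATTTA
In Csf2 5 copies overlap in a single run, in Tnf the 5 copies are 1 alone and 2 overlapping pairs, in Ifng 3 copies are spaced, and in Ccl3 a pair stands at its end.

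The main comparison asked whether these transcripts differed between Scd-1 KO and WT Teff. Ifng, Csf2, Ccl3, Ccl4, Ccl5 and Tnf had higher levels in Scd-1 KO than in WT within each of the 3 replicate numbers, and so did Spp1, whereas the ratios of Lta and Ltb lay between 0.779 and 1.03 and Xcl1 went both ways. In the edgeR fit to all 6 libraries without the replicate numbers, however, no member passed, although DESeq2's test called Spp1, and replicate 1 of 1 group often lay beyond replicates 2 and 3 of the other. Counts were tested with edgeR (quasi-likelihood), and 0 of 10 members were past the thresholds that the study used, a doubling or halving (log2 fold change of 1 or more in size) and p under 0.001 before adjustment, against 0.738% of all genes tested. At an adjusted p under 0.05, 0 of 10 passed, against 0.114% of all genes, and 1 member had an unadjusted p under 0.05, against 10.1% of all genes. The median log2 fold change of the members was 1.15, and that of all genes was -0.00.

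Same-numbered libraries of the 2 genotypes deviated together from their group means, most clearly replicate 1 (r of 0.595). Scd-1 KO replicate 2, however, correlated at 0.380 with WT replicate 3 and at 0.306 with WT replicate 2, so the pairing of these 2 numbers is uncertain. With the replicate number as a block the calls changed. Ifng, Ccl4 and Ccl5 were then past the thresholds, 3 of 10 members, against 1.91% of all genes. Ifng, Csf2, Ccl4, Ccl5 and Spp1, 5 of 10, rose at an adjusted p under 0.05, against 4.70% of all genes, and no member fell. Between the 4 libraries of replicates 2 and 3 alone, a comparison chosen after seeing the data, 5 of 10 members (Ifng, Csf2, Ccl3, Ccl5 and Spp1) were past the thresholds, against 3.83% of all genes, and 6 of 10 had an adjusted p under 0.05, against 12.6% of all genes. In all, 7 of 10 members were higher in Scd-1 KO within all 3 numbers, against 20.6% of all genes, and 1 of 10 was lower within all 3, against 24.7%.

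**Figure D1:**
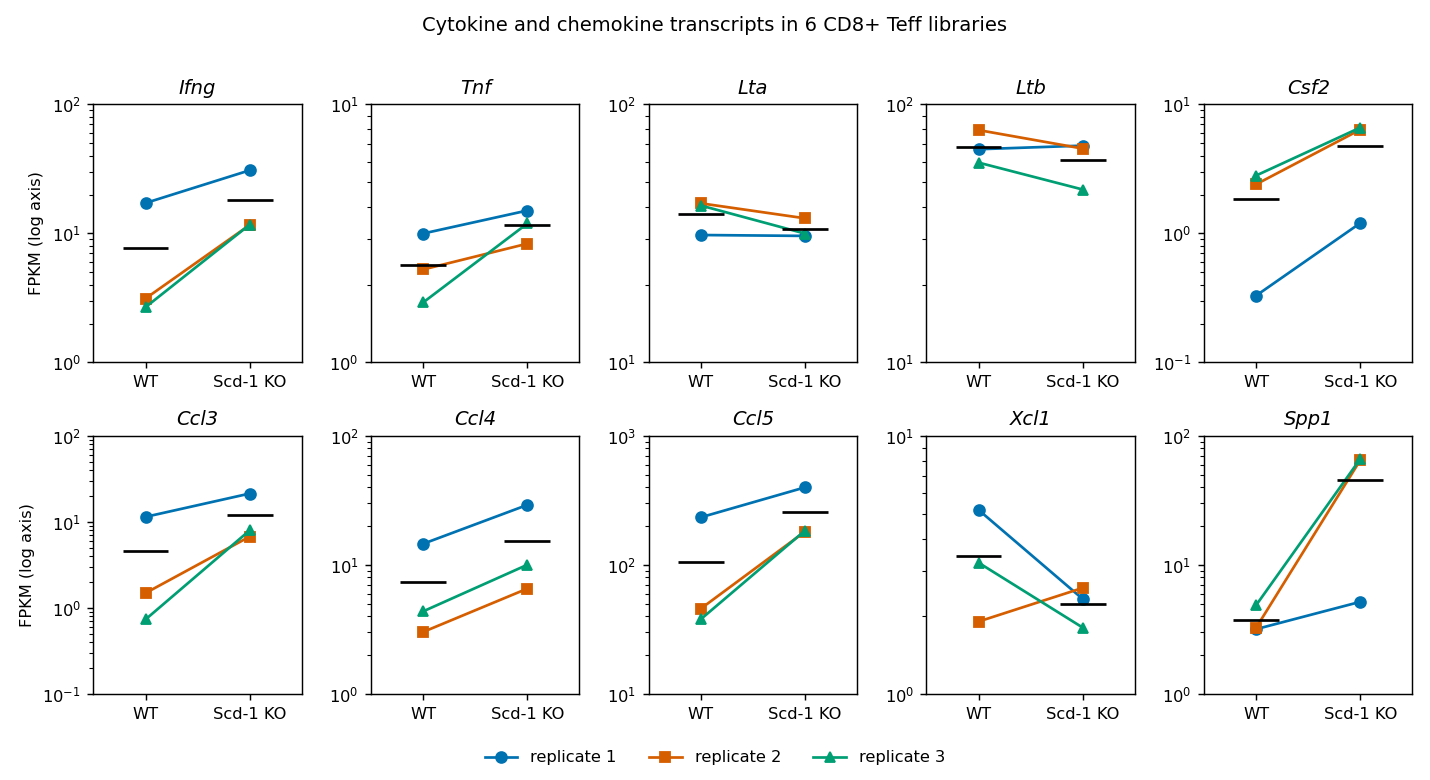
FPKM (log axis) of the 10 transcripts in the 3 WT and 3 Scd-1 KO libraries, with a line joining libraries of the same replicate number and a black bar at each group mean. Ifng, Ccl3, Ccl4 and Ccl5 were highest in replicate 1 of both genotypes and Csf2 was lowest there, and Spp1 was at 65.1 and 66.5 FPKM in Scd-1 KO replicates 2 and 3 against at most 5.18 elsewhere.

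Ifng was at 17.2, 3.13 and 2.68 FPKM in WT replicates 1, 2 and 3 and at 30.9, 11.6 and 11.7 FPKM in Scd-1 KO replicates 1, 2 and 3. WT replicate 1 was above Scd-1 KO replicates 2 and 3, so the groups overlapped, but within each number Scd-1 KO was higher, by 1.79-fold, 3.72-fold and 4.37-fold. Its log2 fold change was 1.24 with an SE of 0.76 (edgeR adjusted p = 0.650), and with the replicate block it was 1.57 with an SE of 0.27 (adjusted p = 0.0232). Between replicates 2 and 3 alone the log2 fold change was 2.04 (adjusted p = 0.000678). Leaving out 1 library moved it from 0.60 (without Scd-1 KO replicate 1) to 2.67 (without WT replicate 1), and it passed in none of these fits.

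Ccl5, by far the most abundant chemokine transcript here, followed Ifng closely. Its level was 234, 45.8 and 38.0 FPKM in WT and 399, 181 and 185 FPKM in Scd-1 KO, so that WT replicate 1 again stood above Scd-1 KO replicates 2 and 3. The ratios within the numbers were 1.71, 3.96 and 4.86. The log2 fold change was 1.27 with an SE of 0.71 (edgeR adjusted p = 0.614), and with the block it was 1.69 with an SE of 0.27 (adjusted p = 0.0182). Its fold depended on the library left out: without WT replicate 1 it was past the thresholds at a log2 fold change of 2.65 (adjusted p = 0.0346), whereas without Scd-1 KO replicate 1 it was 0.79 (adjusted p = 0.642), without WT replicate 2 0.91 and without WT replicate 3 0.86. Ccl5 alone made up 60.4%, 24.9% and 24.0% of the summed FPKM of the 10 members in WT, and 67.3%, 46.9% and 49.8% in Scd-1 KO.

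Ccl3 and Ccl4, which encode the inflammatory chemokines MIP-1alpha and MIP-1beta, were also highest in replicate 1. Ccl3 was at 11.4, 1.49 and 0.734 FPKM in WT and at 21.4, 6.76 and 7.98 FPKM in Scd-1 KO. The ratio of the genotypes was 1.87 in replicate 1, 4.54 in replicate 2 and 10.9 in replicate 3, and the last of these rests on 8 counts in WT. Its log2 fold change was 1.40 with an SE of 0.94 (edgeR adjusted p = 0.684), and with the block 1.90 (adjusted p = 0.0511), so it passed only between replicates 2 and 3 alone (2.76, adjusted p = 0.00223) among these 3 comparisons. It was 0.68 without Scd-1 KO replicate 1 and 3.47 without WT replicate 1.

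Ccl4 was at 14.6, 3.02 and 4.37 FPKM in WT and at 29.2, 6.55 and 10.0 FPKM in Scd-1 KO. Its ratio was the steadiest of the members that were higher in Scd-1 KO, at 2.00, 2.17 and 2.30 in the 3 numbers. The log2 fold change was 1.07 with an SE of 0.73 (edgeR adjusted p = 0.695), and with the block 1.12 with an SE of 0.21 (adjusted p = 0.0281). Without the block it was 0.18 when Scd-1 KO replicate 1 was left out and 2.09 when WT replicate 1 was. The annotated promoter of Ccl3 and that of Ifng are shown because these genes moved together over the libraries (RefSeq start sites on GRCm38.p6, 250 bases before the start site to 50 after it). Capitals mark GGAAA on either strand, the core that NFAT proteins bind.
Ifng, chr10:118440796-118441095, plus strand: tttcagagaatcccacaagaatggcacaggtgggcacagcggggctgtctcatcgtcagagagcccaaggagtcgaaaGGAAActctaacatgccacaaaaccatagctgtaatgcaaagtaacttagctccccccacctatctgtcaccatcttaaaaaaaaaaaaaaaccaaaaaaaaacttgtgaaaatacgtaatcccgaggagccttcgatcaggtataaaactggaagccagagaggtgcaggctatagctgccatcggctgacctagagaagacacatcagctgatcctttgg
Ccl3, chr11:83649329-83649628, minus strand: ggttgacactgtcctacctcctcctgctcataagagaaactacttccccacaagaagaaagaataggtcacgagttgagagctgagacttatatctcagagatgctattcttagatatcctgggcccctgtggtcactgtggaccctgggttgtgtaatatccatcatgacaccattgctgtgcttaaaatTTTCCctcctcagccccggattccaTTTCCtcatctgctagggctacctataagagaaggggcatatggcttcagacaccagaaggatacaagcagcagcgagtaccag
GGAAA was found in the promoter windows of all 8 members with an entry and in 61.3% of 32851 promoter windows of the same length. The AP-1 motif TGANTCA was found in none of the 8 and in 7.81% of all windows. A kappaB motif was found in 1 of the 8, Ltb, where it overlaps GGAAA, and in 8.46% of all windows. The RefSeq start site of Csf2 lies 232 bases from its GENCODE start, and its window (chr11:54249850-54250149) is wholly upstream of the GENCODE gene. The bases next to the GENCODE start of Csf2 were thus not searched, and these motif counts do not cover them.

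Csf2 ran against Ifng and the CC chemokines over the replicate numbers. It was at 0.330, 2.40 and 2.81 FPKM in WT and at 1.20, 6.38 and 6.62 FPKM in Scd-1 KO, and its counts were only 4, 27 and 32 in WT and 15, 72 and 84 in Scd-1 KO. Replicate 1 was the lowest library of each genotype, while Scd-1 KO was still higher within each number, by 3.65-fold, 2.65-fold and 2.35-fold. For Csf2 the log2 fold change was 1.39 with an SE of 0.79 (edgeR adjusted p = 0.621), and with the block it was 1.43 with an SE of 0.29 (adjusted p = 0.0365), with an unadjusted p of 0.00127 that missed the threshold of the study. Leaving out 1 library moved it between 0.89 (without WT replicate 1) and 1.85 (without Scd-1 KO replicate 1).

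Of the TNF family members, Tnf leaned the way of Ifng by a smaller size, while Lta and Ltb did not. Tnf was at 3.16, 2.29 and 1.71 FPKM in WT and at 3.88, 2.89 and 3.46 FPKM in Scd-1 KO. It was 1.23-fold, 1.26-fold and 2.02-fold higher in Scd-1 KO within the numbers, with groups that overlapped, and its log2 fold change of 0.53 had a 95% interval from -0.15 to 1.21 (edgeR adjusted p = 0.605, and 0.194 with the block). Lta, the lymphotoxin that is secreted alone or held at the membrane by Ltb, was at 31.2, 41.4 and 40.6 FPKM in WT and at 30.9, 36.2 and 31.6 FPKM in Scd-1 KO. Its log2 fold change was -0.17, with a 95% interval from -0.55 to 0.20 (edgeR adjusted p = 0.806), an interval that leaves out a doubling and a halving. Ltb was at 67.0, 79.5 and 59.5 FPKM in WT and at 69.2, 67.4 and 46.8 FPKM in Scd-1 KO. The log2 fold change of Ltb was -0.15, with a 95% interval from -0.59 to 0.30 (edgeR adjusted p = 0.873). The block left both uncalled, at adjusted p = 0.446 for Lta and 0.404 for Ltb. The 3 transcripts together summed to 101, 123 and 102 FPKM in WT and to 104, 107 and 81.8 FPKM in Scd-1 KO, and nearly all of that was Lta and Ltb.

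Xcl1 had the most negative log2 fold change of the members over all 6 libraries, a place that rested on WT replicate 1. It was at 5.17, 1.91 and 3.23 FPKM in WT and at 2.33, 2.58 and 1.81 FPKM in Scd-1 KO, so the groups overlapped. The ratio of Scd-1 KO to WT was 0.452 and 0.560 in replicates 1 and 3 but 1.35 in replicate 2. Its log2 fold change was -0.60 with an SE of 0.43 (edgeR adjusted p = 0.707, and 0.446 with the block). Without WT replicate 1 it was -0.16, against -0.28 for Lta, and between replicates 2 and 3 alone it was -0.20, against -0.24 for Lta and -0.25 for Ltb.

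Spp1 had the largest difference of the 10 and was the only member whose groups did not overlap, a pattern that 7.67% of all genes tested showed in this direction. It was at 3.18, 3.26 and 4.88 FPKM in WT and at 5.18, 65.1 and 66.5 FPKM in Scd-1 KO. Scd-1 KO replicate 1 thus lay just above WT replicate 3, while the other two lay far above all WT libraries, and the ratios within the numbers were 1.63, 19.9 and 13.6. The log2 fold change was 3.62 with an SE of 0.83 (edgeR adjusted p = 0.177), and with the block 3.07 with an SE of 0.65 (adjusted p = 0.0416). Without Scd-1 KO replicate 1 it was 4.15 (adjusted p = 0.000378), past the thresholds, and in DESeq2's test on all 6 libraries it was 3.62 (adjusted p = 0.00837), past them as well. The RefSeq promoter window nearest to its annotated start is given because Spp1 changed most, with GGAAA in capitals on either strand.
Spp1, chr5:104434861-104435160, plus strand: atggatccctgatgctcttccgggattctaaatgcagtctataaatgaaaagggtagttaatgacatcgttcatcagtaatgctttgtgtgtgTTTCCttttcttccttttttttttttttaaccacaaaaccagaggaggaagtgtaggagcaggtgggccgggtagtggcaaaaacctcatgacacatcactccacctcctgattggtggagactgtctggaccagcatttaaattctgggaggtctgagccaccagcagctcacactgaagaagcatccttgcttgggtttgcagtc
A single GGAAA match lies 157 bases before the start site, on the opposite strand, and a second RefSeq window of Spp1, chr5:104435942-104436241, not shown, holds 2 matches.

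Some genes from marker lists of other cells were also higher in Scd-1 KO. Of these lists, that of mast cells, basophils and eosinophils was, like Spp1, high in Scd-1 KO replicates 2 and 3 but not in replicate 1. Mcpt8, a basophil protease, was at 0.386, 0.750 and 0.247 FPKM in WT and at 0.601, 9.12 and 9.21 FPKM in Scd-1 KO, and the 6 markers of mast cells, basophils and eosinophils summed to between 1.17 and 2.36 FPKM in WT and between 1.90 and 13.3 in Scd-1 KO. The high affinity IgE receptor chain Fcer1a, however, was at 0 in 4 libraries and at most 0.122 FPKM, and Prg2 was at 0 in every library. The 8 markers of natural killer and innate lymphoid cells summed to between 297 and 454 FPKM in WT and between 591 and 629 in Scd-1 KO, most of it Nkg7 and as high in Scd-1 KO replicate 1 as in the other two, with Ncr1 at no more than 0.221 FPKM. Of this list Klre1 was past the thresholds (log2 fold change 2.18, edgeR adjusted p = 0.0907), 3 of 4 genes tested rose with the block, and Klrb1c, at 1.66, 9.39 and 7.79 FPKM in Scd-1 KO, was high in replicates 2 and 3 as Spp1 was. The 5 gamma delta T cell markers summed to between 149 and 186 FPKM in WT and between 250 and 517 in Scd-1 KO, led by Tcrg-C2, and Trdc was past the thresholds (log2 fold change 2.86, edgeR adjusted p = 0.0629, and 0.00985 with the block). With the block 4 of the 4 tested were past the thresholds and rose, against 1.91% of all genes past them. The 10 myeloid markers summed to between 17.1 and 25.1 FPKM in WT and between 55.7 and 80.5 in Scd-1 KO, led by Fcer1g in Scd-1 KO replicates 2 and 3, which was past the thresholds (log2 fold change 2.68, edgeR adjusted p = 0.0988), while Adgre1 was at 0 in every library and Lyz2 and Csf1r reached no more than 0.113 and 0.0484 FPKM. The methods describe isolation of CD8+ T cells with a kit before culture, and bulk RNA does not show which cells these transcripts came from. Whether other cells remained, and any part of theirs in the level of Spp1 and of the other members, was not tested. In bulk RNA, more cells of a type and more RNA per cell cannot be told apart.

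The labelled cell type showed its markers in every library. The 8 CD8 T cell markers summed to between 2745 and 3422 FPKM in WT and between 2856 and 3255 in Scd-1 KO, and none of them passed a test with or without the block. Cd4 and Cd40lg were at no more than 0.345 and 0.285 FPKM, Ms4a1 and Pax5 were at 0 in every library, and the 4 CD4 T cell markers summed to between 6.15 and 12.2 FPKM in WT and between 8.01 and 11.2 in Scd-1 KO, nearly all Zbtb7b. The 6 B cell markers summed to between 9.44 and 10.9 FPKM in WT and between 3.15 and 8.05 in Scd-1 KO, nearly all Cd79b, which fell with the block (log2 fold change -1.13, edgeR adjusted p = 0.0434).

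**Figure D2:**
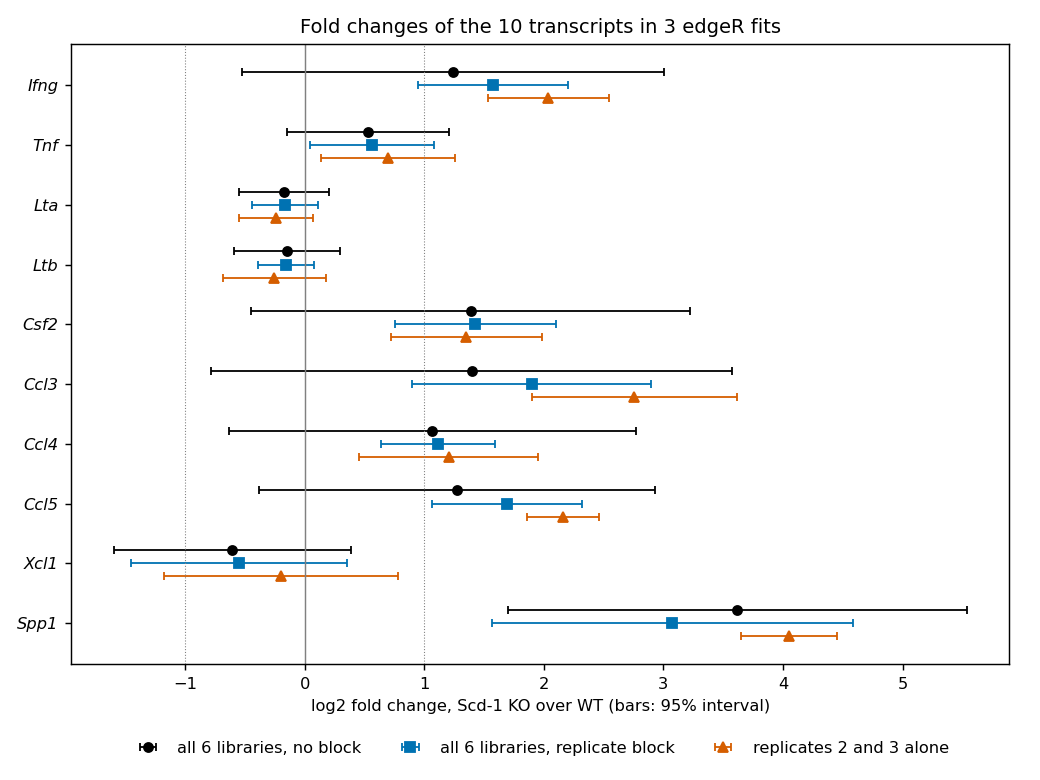
Log2 fold change of each transcript, Scd-1 KO over WT, with its 95% interval, in edgeR fits to all 6 libraries without the replicate block (black), with it (blue), and to replicates 2 and 3 alone (orange), with dotted lines at 1 and -1. The intervals of Ifng, Tnf, Csf2, Ccl3, Ccl4 and Ccl5 include 0 without the block and lie above 0 in the other fits. That of Spp1 lies above 0 in all 3 fits, whereas those of Lta, Ltb and Xcl1 include 0 in all 3 fits.

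**Figure D3:**
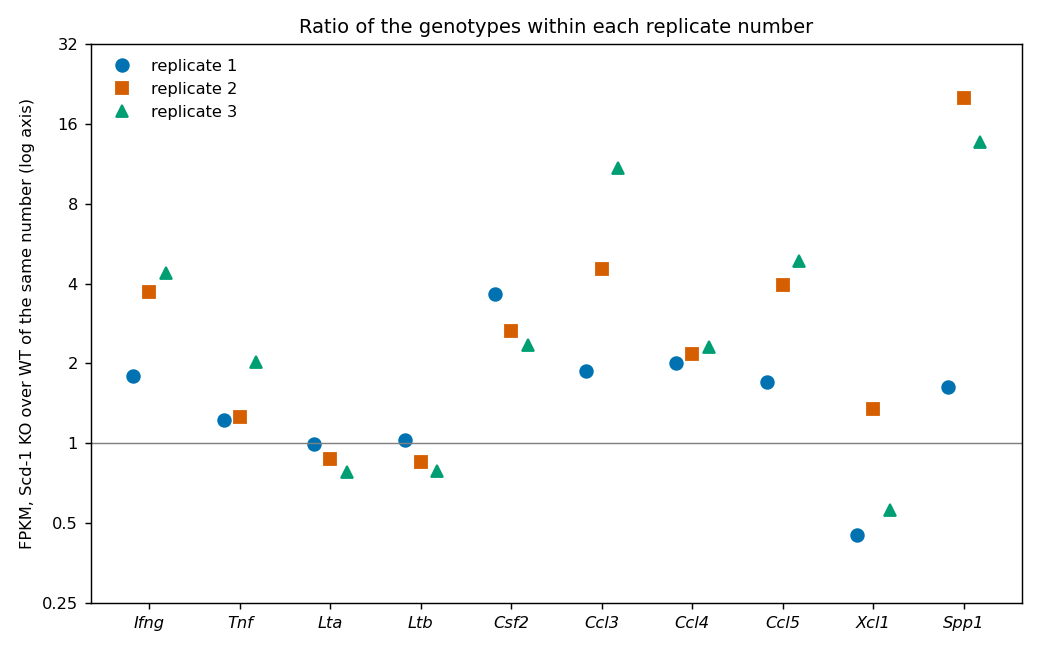
FPKM in Scd-1 KO divided by FPKM in WT of the same replicate number (log axis), with a marker for each number and a line at 1. Ratios were between 2.00 and 2.30 for Ccl4 in all 3 numbers, whereas those of Spp1 ran from 1.63 to 19.9.

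Differences between replicate numbers were as large as those between genotypes, and the members went in opposite directions. In WT the level in replicate 1, divided by the mean of replicates 2 and 3, was 10.3 for Ccl3, 5.92 for Ifng, 5.58 for Ccl5 and 3.95 for Ccl4, against 0.126 for Csf2. In Scd-1 KO the same quotients were 2.90, 2.65, 2.18 and 3.52, and 0.185 for Csf2, so replicate 1 again stood above the others for the first 4 and below them for Csf2, and each of these 5 quotients was nearer to 1 than in WT. For Spp1 the quotient was 0.781 in WT and 0.0787 in Scd-1 KO. At least 2-fold higher in replicate 1 were 4 of 10 members in each genotype, by the log2 CPM of the libraries, against 4.01% of all genes in WT and 4.44% in Scd-1 KO. The methods speak of independent experiments in general, but what the replicate numbers of these libraries mean is given in no source used here, and the source of this spread was not tested.

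The likeness of these patterns was measured by the distance between the log2 CPM (counts scaled to library size) of 2 genes, each centred over the 6 libraries. Among all 9627 genes, Ccl5 was the nearest to Ifng and Ifng the nearest to Ccl5, at 0.250. This pair was named after its values were seen. By the same measure Ccl3 ranked 15 and Ccl4 ranked 26 in distance from Ifng, and Csf2 ranked 9569, at 5.09. Gzmk, a granzyme gene, was the nearest to Ccl3 at 0.907, with 12.3, 2.55 and 1.51 FPKM in WT and 28.4, 7.33 and 6.52 FPKM in Scd-1 KO. Gadd45g, a stress-inducible gene, was the nearest to Csf2 at 0.795, with 5.15, 14.1 and 16.6 FPKM in WT and 9.27, 53.3 and 53.3 FPKM in Scd-1 KO. Spp1 was nearest to Serpinb9b (0.769), Klrb1c (1.20), which encodes the receptor NK1.1, and Mcpt8 (1.24). In WT Klrb1c was at 0.501, 0.804 and 0.938 FPKM, lower than in any Scd-1 KO library. Xcl1 was nearest to Prrg4 (0.263), Trav10 (0.270) and Pddc1 (0.329), none of them a cytokine gene. The libraries are 6, shared by all genes, and no p is given for these distances.

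The receptors of the members showed no common direction, with 7 of 11 receptor genes tested positive in log2 fold change and 4 negative. Of these, 0 were past the thresholds and 1, Ifngr2, fell with the block. Ifngr2, the chain of the interferon-gamma receptor that brings in JAK2, was at 1.15, 3.21 and 2.61 FPKM in WT and at 0.275, 0.364 and 0.630 FPKM in Scd-1 KO. Every Scd-1 KO library was thus below every WT library, and the log2 fold change was -2.42 (edgeR adjusted p = 0.120, and -2.38 with adjusted p = 0.0089 with the block). Ifngr1, the ligand-binding chain, was far higher, at 141, 79.3 and 73.9 FPKM in WT and 147, 113 and 113 FPKM in Scd-1 KO, with a log2 fold change of 0.36 (adjusted p = 0.737). Xcr1 was at 0 in every library.

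Genes that interferon-gamma is known to induce did not follow Ifng. Of 16 tested, 15 had a negative log2 fold change, with a median of -0.64 against -0.00 over all genes, and 0 were past the thresholds. With the block 10 fell and 0 rose at an adjusted p under 0.05, where 198 of 9627 genes fell. Gbp2, a guanylate-binding GTPase, was at 32.7, 77.7 and 81.8 FPKM in WT and at 16.1, 23.9 and 25.7 FPKM in Scd-1 KO (log2 fold change -1.52, edgeR adjusted p = 0.176, and -1.44 with 0.00427 with the block). Within each genotype Gbp2 was lowest in replicate 1, where Ifng was highest. Iigp1, an immunity-related GTPase, had a log2 fold change of -2.63 and Igtp one of -1.01 (edgeR adjusted p = 0.00427 and 0.00266 with the block), whereas Psmb8, the most abundant of the list, was between 196 and 220 FPKM in all libraries (-0.06, adjusted p = 0.917).

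**Figure D4:**
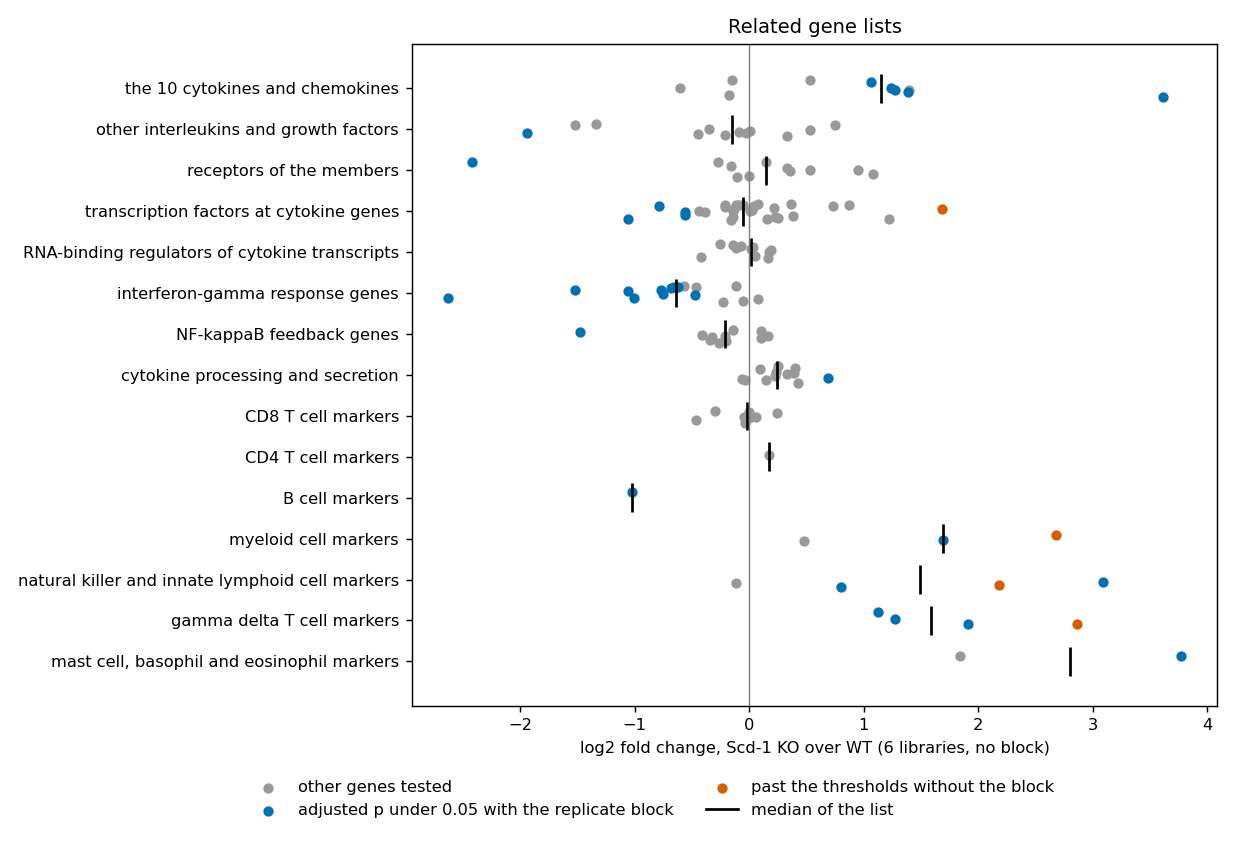
Log2 fold changes (Scd-1 KO over WT, all 6 libraries, no block) of the 10 transcripts and of the tested genes of each related list, each point a gene and each black bar a median, with genes past the thresholds in orange and others with an adjusted p under 0.05 under the block in blue. Interferon-gamma response genes lie mostly below 0, with a median of -0.64, while the 10 cytokines and chemokines have a median of 1.15.

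Of 29 transcription factors that act at cytokine genes, 1 rose and 0 fell without the block. Eomes, a T-box factor of effector and memory CD8 T cells that acts at Ifng, was at 3.62, 4.18 and 4.07 FPKM in WT and at 9.34, 14.5 and 13.7 FPKM in Scd-1 KO. The groups were well apart, with a log2 fold change of 1.69 (edgeR adjusted p = 0.0359). Its relative Tbx21 was at 18.4, 36.3 and 29.9 FPKM in WT and at 18.9, 33.1 and 33.6 FPKM in Scd-1 KO, lowest in replicate 1 of both genotypes, with a log2 fold change of 0.04 (adjusted p = 0.978), and it is named here after its values were seen. With the block 4 factors fell, Irf4, Ikzf1 and Stat5b among them. Irf4, which acts with AP-1 factors after T cell receptor signalling, was at 38.8, 47.3 and 50.3 FPKM in WT and at 20.1, 30.9 and 26.6 FPKM in Scd-1 KO (log2 fold change -0.79, edgeR adjusted p = 0.177, and 0.00912 with the block).

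Of 11 RNA-binding regulators that act on AU-rich and stem-loop elements, 0 passed a test with or without the block. Zfp36l2, the most abundant of them that binds ATTTA repeats, was at 88.4, 66.3 and 62.0 FPKM in WT and at 79.9, 68.5 and 55.7 FPKM in Scd-1 KO (log2 fold change -0.07, edgeR adjusted p = 0.949). Khsrp, a decay factor for such transcripts, was at 50.5, 83.1 and 89.6 FPKM in WT and at 54.0, 68.2 and 61.1 FPKM in Scd-1 KO (-0.26, adjusted p = 0.765). Of 11 genes of NF-kappaB feedback, 0 passed without the block and Cd83 fell with it (log2 fold change -1.51, edgeR adjusted p = 0.0240). Of 12 genes of cytokine processing and secretion, 10 had a positive log2 fold change, none passed without the block, and Vamp7, a vesicle SNARE of granule exocytosis, rose with it (0.69, edgeR adjusted p = 0.0465).

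Of 33 further interleukins and growth factors 12 were tested and 12, Il2, Il3, Il17a, Il21 and Il22 among them, were at 0 in every library, which at this depth allows up to 3 counts in each. Of 29 further chemokines 0 reached the minimum and 16 were at 0 in every library, so Ccl3, Ccl4, Ccl5 and Xcl1 were the chemokine transcripts above it. None of the 12 passed without the block, and with it Lif fell. Fgl2, which encodes a fibrinogen-like protein that T cells can secrete, had the smallest p of the list and was higher in Scd-1 KO. It was at 18.8, 12.5 and 12.4 FPKM in WT and at 20.6, 26.0 and 26.3 FPKM in Scd-1 KO, with groups that did not overlap (log2 fold change 0.75, edgeR adjusted p = 0.274, and 0.0674 with the block), and it was past the thresholds between replicates 2 and 3 alone (1.10). In that comparison Lif (-2.05) and Il24 (-2.12) were past them in the other direction. Il24 was at 0.841, 3.17 and 2.78 FPKM in WT and at 1.27, 0.842 and 0.499 FPKM in Scd-1 KO, and over all 6 libraries it had a log2 fold change of -1.34 (edgeR adjusted p = 0.469). Lif, a cytokine of the IL-6 family, was at 2.26, 18.2 and 18.6 FPKM in WT and at 1.26, 4.37 and 4.31 FPKM in Scd-1 KO (log2 fold change -1.94, edgeR adjusted p = 0.449, and -1.71 with 0.0110 with the block). Like Csf2 it was lowest in replicate 1 of both genotypes, but its genotype difference went the other way. Il13 was at 0.274, 1.77 and 2.80 FPKM in WT and at 0.480, 0.353 and 0.785 FPKM in Scd-1 KO (log2 fold change -1.52, edgeR adjusted p = 0.554). The most abundant of the list was Mif, at 1128, 1255 and 1305 FPKM in WT and 1118, 995 and 1022 FPKM in Scd-1 KO, with a log2 fold change of -0.21 (adjusted p = 0.590).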

How the data were processed

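RNA-seq of 6 libraries of CD8+ Teff was analysed. Per the labels and the methods of the study, reads were mapped to GRCm38 with HISAT2 and assigned to genes with StringTie 1.3.0. The labels name poly(A) RNA and a VAHTS kit and the methods name a TruSeq stranded kit, so the strand setting is unknown, and genes that overlap on opposite strands are uncertain. The authors deposited raw counts per gene and FPKM values per gene for each library. The deposited FPKM were scaled by total counts without a TMM factor. No 2 libraries agreed within sampling noise, so all 6 were counted.

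Counts of 9627 genes with a mean of at least 1 FPKM (17192 had any count) were tested with edgeR 4.0.16 (quasi-likelihood, TMM), with Benjamini-Hochberg adjustment over all of them. SEs are the log2 fold change divided by the root of F. Groups and replicate numbers came from the sample titles. Across genes, deviations of same-numbered libraries from their group means correlated at r of 0.595, 0.306 and 0.470 for replicates 1, 2 and 3. Scd-1 KO replicate 2 with WT replicate 3 gave 0.380, above its own number, and Scd-1 KO replicate 3 with WT replicate 2 gave 0.180. The numbers were taken to pair the libraries, which is uncertain for replicates 2 and 3. The fit with a replicate block is given beside the fit without it. FPKM depend on gene length models, and a low count has a wide error: a count of 0 allows up to 3 counts. The tests were also tried on simulated counts in which any shift of replicate 1 was shared by both genotypes. That is not the pattern of Spp1 here, and no statement here rests on that trial.

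The members and gene lists were chosen with earlier results of these data known. Named are all members, Scd1, up to 4 genes of each list by call and then p, up to 2 by level, and the 3 nearest to the member with the largest rise and to that with the largest fall. A few genes that this rule names are not reported here. Genes outside this rule (Tbx21, the nearest genes of Ifng, Ccl5, Ccl3 and Csf2, Stat5b, and markers near 0) were chosen after their values were seen. Alternatives were no FPKM minimum, a minimum of 5, other scaling, DESeq2 1.42.0, limma 3.58.1 on log2(FPKM + 1) and log2(FPKM + 0.1), the block, and leaving out each library. Fits to replicates 2 and 3 alone and with a term for replicate 1 were added after seeing the data. Motifs were searched with Python 3.11.15 in GENCODE M21 transcripts (the longest coding transcript of a gene) and in RefSeq promoter windows, which matched 8 of 10 members by symbol. Transcript identity was computed with edlib.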

Additional observations from a re-analysis of the deposited data

How the results depend on the processing

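Without the replicate block, 71 genes were past the thresholds and 11 reached an adjusted p under 0.05, with 0 and 0 members. With the replicate block these counts were 184 and 452 genes and 3 and 5 members. Between replicates 2 and 3 alone they were 369 and 1213 genes and 5 and 6 members, and with a term for replicate 1 they were 209 and 539 genes and 4 and 6 members, both fits chosen after seeing the data. DESeq2 gave 161 and 266 genes and 1 member by each rule, and no FPKM minimum gave 148 and 84 genes with 1 member past the thresholds. A minimum of 5 FPKM gave 42 genes past the thresholds, and limma on log2(FPKM + 1) gave 17 genes with an adjusted p under 0.05. Leaving out 1 library gave between 25 and 163 genes past the thresholds, between 2 and 182 with an adjusted p under 0.05, and 0 to 1 members by either rule. The member was Spp1 without Scd-1 KO replicate 1 and Ccl5 without WT replicate 1, and 163 and 143 genes were past the thresholds in these 2 fits. The fold changes of the members kept their direction in all fits but 1: that of Ltb lay between -0.25 and 0.0104 with 1 library left out, the latter without Scd-1 KO replicate 3. Csf2 rests on 4 to 84 counts a library. The causes of these shifts were not tested, except that the fits without a library and those of replicates 2 and 3 have fewer samples.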

Other observations

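Around the members, neighbours within 50000 bases ran from genes at 0 in every library to well expressed genes such as Prrc2a, near Ltb. Prrc2a was at 55.4, 89.4 and 82.4 FPKM in WT and at 54.5, 69.6 and 54.7 FPKM in Scd-1 KO. Taf15, 19035 bases from Ccl5, was at 16.1, 13.2 and 19.6 FPKM in WT and at 20.7, 22.8 and 22.1 FPKM in Scd-1 KO (log2 fold change 0.45, edgeR adjusted p = 0.424). Il3, next to Csf2, was at 0 in every library. Ccl9, 42401 bases from Ccl5, was at 0, 0 and 0.109 FPKM in WT and at 0.498, 0.330 and 0.763 FPKM in Scd-1 KO, below the minimum, with groups that did not overlap (log2 fold change 3.82, edgeR adjusted p = 0.172 over the 17192 genes with a count). Heatr9, 3603 bases from Ccl5, was highest in replicate 1 of each genotype, as Ccl5 was, at 1.72, 0.190 and 0.412 FPKM in WT and at 2.16, 0.832 and 0.471 FPKM in Scd-1 KO. In the major histocompatibility complex, the neighbours Lst1, Nfkbil1 and Ddx39b had log2 fold changes of -0.15, 0.13 and -0.29, none past a threshold. These genes were chosen for their place and after their values were seen.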
